A study of Homo sapiens with 8 samples.

Results

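Podocalyxin, its family members and the proteins that tie them to the actin cortex were examined as 9 of the 58051 genes in the count table, chosen by name: the sialomucins PODXL, PODXL2 and CD34, the ERM genes EZR, RDX and MSN, the related NF2, and the scaffolds NHERF1 and NHERF2. RNA-seq had been run on PC3, a human prostate cancer cell line derived from a bone metastasis, to ask which transcripts change when IER5L, an immediate early response gene, is silenced. The 4 control samples carried the shScramble hairpin and the 4 silenced samples carried the sh2 IER5L hairpin (shIER5L), each being a PC3 culture transduced with its shRNA. The labels call the 4 samples of a condition biological replicates, and the methods describe 4 plates for each, so the spread measured here is that between plates of 1 cell line and the silencing rests on 1 hairpin. Total counts ranged from 21512128 to 24662190 per sample.

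Podocalyxin is a heavily glycosylated and sialylated membrane protein of the CD34 family, best known from the podocytes of the kidney, where its negative charge keeps cell surfaces apart. Its short cytoplasmic tail ends in a motif that is bound by the PDZ domains of the NHERF scaffolds, and the scaffolds in turn hold ezrin. Ezrin, radixin and moesin carry a FERM domain that binds the membrane side and a tail that binds F-actin, and phosphorylation of the tail keeps them open. Merlin, the product of NF2, shares the FERM domain and is a tumor suppressor that acts on the Hippo pathway.

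Of the 9 genes, only PODXL passed the test, and it was lower in shIER5L. PODXL2, EZR, RDX, MSN, NF2, NHERF1 and NHERF2 did not pass, and CD34 had too few counts to be tested. Thus 1 of the 8 genes tested was past an adjusted p of 0.05 (edgeR quasi-likelihood test, Benjamini-Hochberg adjustment over 16959 genes), against 3.93% of all genes tested in either direction and 1.46% in the lower direction. PODXL was also the 1 differentially expressed gene (DEG) among them, where a DEG also had to move by 0.5 or more on the log2 scale. DEGs made up 0.790% of the genes tested, and 0.366% were lower DEGs. The median log2 fold change of the 8 genes was -0.02, beside 0.00 for all genes tested.

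**Figure D1:**
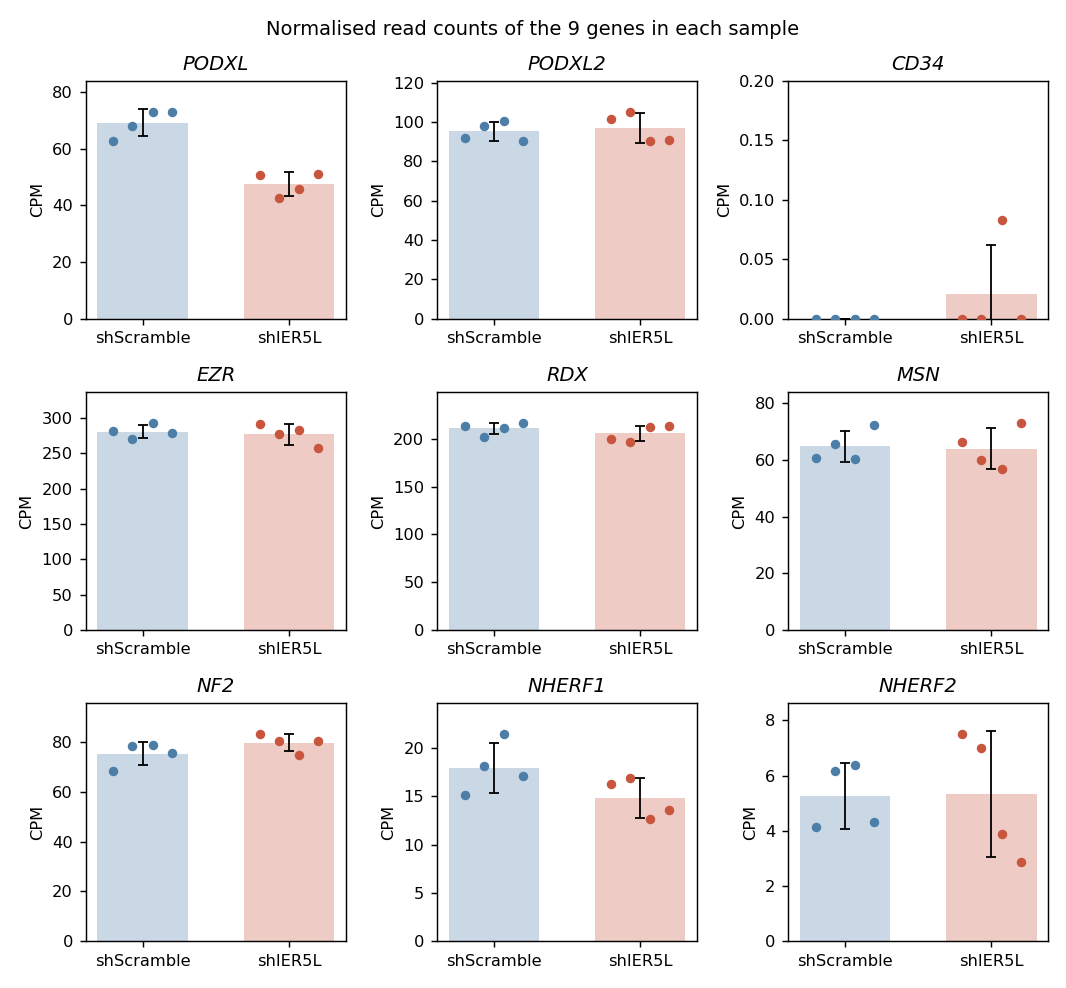
Normalised read counts per sample in CPM, counts scaled to a common library size (linear axes starting at 0), for the 9 genes. Points are samples in replicate order, bars are means and error bars are SD of 4 samples. The PODXL samples of shIER5L all lie below those of shScramble, while in the other 7 genes with counts in both conditions the samples overlap, and CD34 has counts in 1 sample alone.

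IER5L itself, the targeted gene, was measured first. The hairpin sequence listed by the study, shown here because it defines the silenced condition, matched the coding exon of IER5L on the minus strand at chr9:129176988-129177008 (hg38), and the capitals mark bases 12 to 18 from its 5′ end, which recur in members described further on.
sh2 IER5L: gacgcgtccaaCATCTCAaac
The IER5L level was 3.91, 6.51, 5.62 and 3.23 CPM in shScramble and 2.73, 3.02, 2.04 and 1.32 CPM in shIER5L. Every shIER5L sample was below every shScramble sample. The log2 fold change was -1.08 (SE 0.248, edgeR adjusted p = 0.0212). The adjusted p was 0.0937 without shScramble replicate 2, 0.0780 without shScramble replicate 3 and 0.0891 without shIER5L replicate 3. Exons of 2 genes on the opposite strand overlap 25.7% and 13.5% of the IER5L exon bases, and they received at most 2 counts in a sample. Reads in more than 1 gene were left out, so these counts do not measure antisense reads in the shared bases. IER5L reads there were lost too, and the same holds for the antisense overlaps of EZR and NHERF1 given below.

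Samples also differed in the level of GC-rich relative to GC-poor transcripts, in both conditions. Out of 11892 genes, the 1190 most GC-rich and the 1190 most GC-poor were taken. The GC level was the median, over the former, of log2 CPM centred per gene, minus the median over the latter. It was -0.12, 0.22, 0.28 and -0.11 in shScramble and 0.16, 0.22, -0.24 and -0.36 in shIER5L. The transcripts of NHERF2 (67.2% GC), IER5L (65.0%), PODXL2 (64.1%) and NHERF1 (61.7%) stood at percentiles 99.0, 96.9, 95.5 and 91.1 of GC content, and that of RDX (37.4%) at 7.35. The PODXL transcript was nearer the middle, with 51.6% GC and percentile 63.2. A fit with the GC level of each sample as a covariate, added after the data had been examined, is given beside the results where it changed a call or the value most. With it the log2 fold change of IER5L was -0.87 (SE 0.167, edgeR adjusted p = 0.000501). The part of the GC level in the other differences was not tested.

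PODXL encodes podocalyxin and lies on chr7:131500262-131558217, minus strand (hg38, like the coordinates that follow). Its level was 62.7, 68.2, 73.0 and 72.9 CPM in shScramble replicates 1 to 4. In shIER5L it was 50.8, 42.6, 45.9 and 51.1 CPM. The lowest control was thus above the highest silenced sample, as in 4.61% of all genes tested, while in 10.9% the conditions did not overlap in either direction. The means were 69.2 ± 4.86 and 47.6 ± 4.13 CPM (SD, n = 4 each), so that silenced cells held 68.7% of the control level. The log2 fold change was -0.54 (SE 0.0705, 95% interval -0.69 to -0.39, edgeR adjusted p = 0.000317). PODXL stayed past the adjusted threshold in each of the 19 alternative fits, its log2 fold change running from -0.59 to -0.49. The value of -0.49 was that without shIER5L replicate 2, the lowest PODXL sample, and there PODXL was no longer a DEG. With the GC level as a covariate it was -0.55 (edgeR adjusted p = 8.16e-08). PODXL was among the genes that the study selected from these same samples, so its fall is no independent evidence for that selection. The study also reported lower protein for the selected genes, and changes of their transcripts in separate sample sets. There, by its account, the IER5L hairpin that silenced less had a milder effect. For another prostate cancer cell line, the study named only some of the selected genes as lower after IER5L silencing. PODXL was not among the genes it named. Those measurements are not part of the counts used here.

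**Figure D2:**
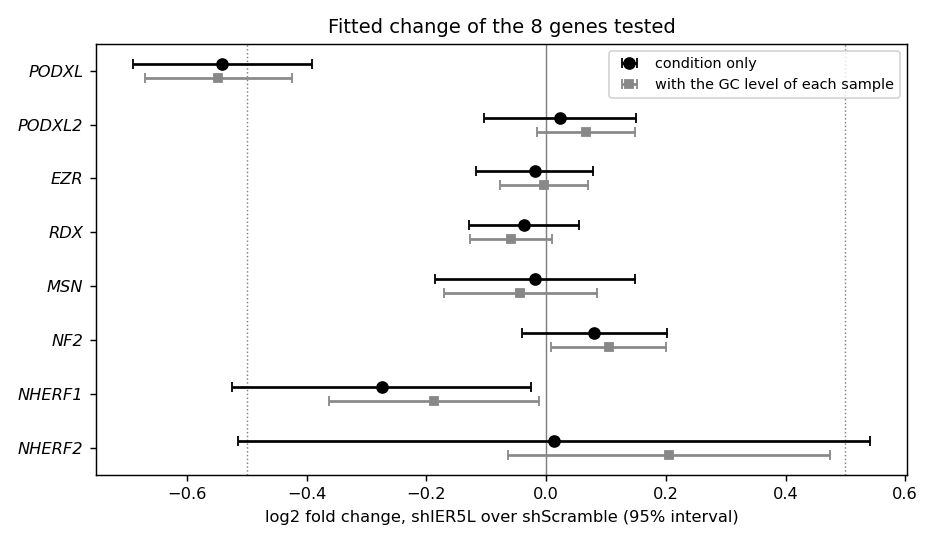
Fitted log2 fold change of shIER5L over shScramble (horizontal axis) for the 8 genes tested, with 95% intervals. Black circles are the fit on condition alone and grey squares the fit with the GC level of each sample as a covariate, with dotted lines at -0.5 and 0.5. The interval of PODXL, -0.69 to -0.39 on condition alone, lies apart from 0 in both fits. So does that of NHERF1 (-0.52 to -0.02, and -0.36 to -0.01 with the covariate), and that of NF2 with the covariate (0.0088 to 0.20). These intervals are not adjusted for the number of genes, and NHERF1 and NF2 did not pass the adjusted threshold in either fit. The interval of NHERF2 is the widest.

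The 3′ ends of the members were compared with the hairpin, because a short hairpin can act on other transcripts through its guide strand. Each of the 15 heptamers of the hairpin sequence was looked for, on the transcript strand, in the longest 3′ UTR among the transcripts that GENCODE v44 types as protein-coding, leaving out those typed as targets of nonsense-mediated decay, of which PODXL and MSN have longer ones. CATCTCA, hairpin bases 12 to 18, occurred in the 4040-base 3′ UTR of PODXL at 2 places, in exon 9 of 9, and in that of NF2 at 1 place, in exon 17 of 17. ACATCTC, hairpin bases 11 to 17, which overlaps it by all but its first base, occurred once in the 3′ UTR of RDX, in exon 14 of 14. These windows of 30 bases carry the matches in capitals, at chr7:131503042-131503071 and chr7:131502842-131502871 on the minus strand for PODXL, chr22:29697470-29697499 on the plus strand for NF2 and chr11:110229486-110229515 on the minus strand for RDX.
PODXL, first: tccagttagctCATCTCActcactctgatt
PODXL, second: gtttctggtggCATCTCAggggaacacaaa
NF2: ggcctcaggagCATCTCAagccccagtagc
RDX: aagttacaattACATCTCtaattttggata
CATCTCA was present in 18.9% of the 12701 genes with a 3′ UTR and at 2 or more places in 4.13%. Among the 1905 genes whose 3′ UTR, chosen in the same way, was at least as long as that of PODXL these shares were 49.5% and 17.7%. A second annotated PODXL transcript has a 3′ UTR of 180 bases without the heptamer, and gene counts do not separate the transcripts. The longest stretch shared with the hairpin in any transcript with an annotated coding sequence was 7 bases for PODXL and 9 bases, in the coding sequence, for NHERF1 and CD34. Over all 15 heptamers, overlapping ones counted separately, the 3′ UTRs searched held 5 matches in PODXL, 6 in NF2, 1 in RDX and 10 in CD34, 4 of these CATCTCA. The 2 heptamers shown above were picked from the 15 without a rule set beforehand. Which hairpin bases would guide pairing was not determined here, so the capitals mark matches and not known pairing sites. TCTCAAA, hairpin bases 14 to 20, had 0 matches in PODXL and 1 each in NF2 and CD34, and was present in 28.4% of the genes. PODXL and NF2 both held CATCTCA and CGTCCAA, the latter present in 1.64% of the 12701 genes. None of the 15 occurred in the 3′ UTR searched for PODXL2, EZR, MSN, NHERF1 or NHERF2. However, a decay transcript of MSN and a further transcript of NHERF1 each hold 1 ACATCTC. Of the pair with matches of both kinds, PODXL was lower in shIER5L and NF2 did not pass the test. The part of the matches in the levels was not tested.

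PODXL2 encodes endoglycan, the podocalyxin-like sialomucin that binds selectins when suitably modified (chr3:127629181-127672809, plus strand). Its level was 91.8, 98.1, 100.5 and 90.5 CPM in shScramble and 101.2, 105.0, 90.1 and 90.8 CPM in shIER5L. The conditions overlapped over nearly their whole range, with a fold change of 0.02 on the log2 scale (95% interval -0.10 to 0.15, edgeR adjusted p = 0.902), and 0.07 with the GC level as a covariate (adjusted p = 0.356).

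CD34, the sialomucin that marks haematopoietic stem cells and small-vessel endothelium (chr1:207880972-207911402, minus strand), had 0 counts in 7 samples. In shIER5L replicate 3 it had 2 counts, or 0.0832 CPM. With independent counts, a count of 0 allows up to 3 counts, here 0.120 to 0.141 CPM depending on the sample. Mates were counted singly, so the true limit is higher, and 2 counts can come from a single fragment. CD34 was thus not detectable at this depth in either condition (counting error only). Markers of cells that carry CD34 gave a mixed picture. The 6 haematopoietic markers summed to 0 to 0.241 CPM in shScramble and 0 to 0.125 CPM in shIER5L, with KIT, SPI1 and CD3E at 0 throughout. The 6 endothelial markers summed to 30.1 to 34.3 CPM in shScramble and 25.9 to 29.998 CPM in shIER5L, nearly all of it KDR and PECAM1, while ERG was at 0 and VWF, CDH5 and TIE1 were near 0.

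Within the sialomucins, the share of PODXL was computed inside each sample from reads per length, so that library scaling does not enter. It was 17.9%, 18.1%, 18.8% and 20.4% in shScramble and 13.8%, 11.4%, 13.9% and 15.2% in shIER5L. All silenced samples had a smaller share than all controls. The means were 18.8% ± 1.14 and 13.6% ± 1.57 (SD), a difference of -5.20 percentage points. The two-sided exact permutation test gave p = 0.0286, the smallest p that 4 samples against 4 allow, and 0.143 after adjustment over the 5 shares tested. This share holds the same PODXL counts as above and adds no separate support.

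EZR encodes ezrin, the ERM protein of epithelial microvilli (chr6:158765741-158819412, minus strand). It was the most abundant of the 9 genes, with 282.4, 270.3, 292.9 and 278.6 CPM in shScramble. In shIER5L it had 292.4, 276.9, 283.3 and 257.2 CPM. Except for a lower shIER5L replicate 4, the silenced samples lay within the control range. On the log2 scale the difference was -0.02 (95% interval -0.12 to 0.08, edgeR adjusted p = 0.897). A pseudogene copy, EZRP1, collected 193 counts over all 8 samples, and the antisense gene EZR-AS1, which overlaps 0.718% of the EZR exon bases, at most 2 in a sample.

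RDX encodes radixin, which in the liver is the main ERM protein of bile canaliculi (chr11:110174880-110296722, minus strand). Its level was 213.1, 202.6, 211.9 and 216.6 CPM in shScramble and 200.5, 197.2, 212.5 and 213.1 CPM in shIER5L. The conditions overlapped, and the log2 fold change was -0.04 (95% interval -0.13 to 0.06, edgeR adjusted p = 0.757).

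MSN encodes moesin, the ERM protein prevalent in leukocytes and endothelium (chrX:65588377-65741931, plus strand). It had 60.8, 65.7, 60.5 and 72.3 CPM in shScramble and 66.5, 59.9, 56.7 and 73.0 CPM in shIER5L, where the highest sample of each condition was replicate 4. Between the conditions the log2 fold change was -0.02 (95% interval -0.19 to 0.15, edgeR adjusted p = 0.949). Counts at the pseudogene copies MSNP1 and RDXP3 came to 6 and 8 over all samples.

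The proportions among the ERM genes differed between conditions by less than the spread between samples. Per length, ezrin made up 66.2% ± 1.05 of the ERM sum in shScramble and 66.4% ± 2.07 in shIER5L. Radixin made up 25.2% ± 0.390 and 25.01% ± 1.33, and moesin 8.55% ± 0.779 and 8.59% ± 1.08 (SD). The differences were 0.174, -0.213 and 0.0389 percentage points, and the exact permutation p-values, two-sided, were 0.886, 0.771 and 0.943. The shIER5L samples spread over 63.3% to 67.8% in the ezrin share and the controls over 65.0% to 67.5%, so the silenced range enclosed the control range.

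NF2 encodes merlin (chr22:29603556-29698598, plus strand). It had 68.6, 78.7, 78.8 and 75.9 CPM in shScramble and 83.3, 80.6, 75.1 and 80.5 CPM in shIER5L. The top 3 silenced samples were above all controls, but shIER5L replicate 3 lay among them. Merlin's log2 fold change was 0.08 (95% interval -0.04 to 0.20, edgeR adjusted p = 0.540), and 0.10 with the GC level as a covariate (adjusted p = 0.182).

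NHERF1 encodes the scaffold first known as a regulator of the sodium-hydrogen exchanger NHE3, and it links membrane proteins to ezrin (chr17:74748613-74769353, plus strand). Its level was 15.1, 18.1, 21.4 and 17.1 CPM in shScramble and 16.3, 16.9, 12.6 and 13.6 CPM in shIER5L. The silenced samples averaged 14.9 ± 2.08 CPM against 17.9 ± 2.63 CPM (SD, n = 4 each), with overlapping ranges. The log2 fold change was -0.27 (95% interval -0.52 to -0.02), with an unadjusted edgeR p of 0.0331, as under 0.05 in 16.5% of all genes tested, and an adjusted p of 0.247. With the GC level as a covariate it was -0.19 (adjusted p = 0.193). An antisense gene overlaps 12.7% of the NHERF1 exon bases and had at most 2 counts in a sample.

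NHERF2, the second scaffold of this pair, is the one found with podocalyxin in podocytes (chr16:2025356-2039026, plus strand). It had 4.15, 6.17, 6.38 and 4.30 CPM in shScramble and 7.50, 7.02, 3.87 and 2.88 CPM in shIER5L. Both the highest and the lowest samples were silenced ones. The coefficient of variation was 22.7% in shScramble and 43.0% in shIER5L, the largest of the 8 genes tested in either condition. NHERF2 split the samples as the GC level did. The 4 samples with a GC level above 0 had 6.17 to 7.50 CPM and the 4 below 0 had 2.88 to 4.30 CPM. Among the lower 4 the order was the same in both measures, while among the upper 4 it was not. The log2 fold change was 0.01 (95% interval -0.51 to 0.54, edgeR adjusted p = 0.989), and 0.21 with the GC level as a covariate (95% interval -0.06 to 0.48, adjusted p = 0.396). A change of NHERF2 within these wide limits could not be seen in these samples.

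NHERF1 was the larger part of the NHERF sum in every sample. Its share per length was 84.6%, 81.6%, 83.5% and 85.7% in shScramble and 76.6%, 78.4%, 83.1% and 87.7% in shIER5L. The silenced samples thus held both the smallest shares and the largest. The difference of the means was -2.39 percentage points, with a two-sided exact permutation p of 0.371 and 0.929 after adjustment over the 5 shares. Leaving out 1 sample moved the difference between -4.47 and -0.770 percentage points.

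Levels can be compared between genes once divided by the counted exon length, as CPM per kilobase of exon (RPKM). In shScramble, EZR led with 84.1 ± 2.80 RPKM, followed by PODXL2 with 43.6 ± 2.21 and RDX with 32.0 ± 0.906 (SD, n = 4). These were at percentiles 96.8, 92.8 and 89.9 of all genes tested, and no ranges overlapped between neighbours in this order. MSN with 10.9 ± 0.929, NF2 with 10.5 ± 0.670 and PODXL with 10.1 ± 0.707 RPKM had overlapping ranges from each to the next. NHERF1 with 7.62 ± 1.12 and NHERF2 with 1.48 ± 0.335 RPKM came last among the genes detected. Among PODXL, PODXL2 and CD34, endoglycan was therefore the leading transcript, at a higher level per length than podocalyxin in every sample. In shIER5L the first 3 ranks were the same genes, with 83.0, 44.3 and 31.2 RPKM. There PODXL, with 6.92 ± 0.601 RPKM, no longer overlapped with NF2 (11.1 ± 0.480) and overlapped with NHERF1 (6.31 ± 0.882) instead.

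**Figure D3:**
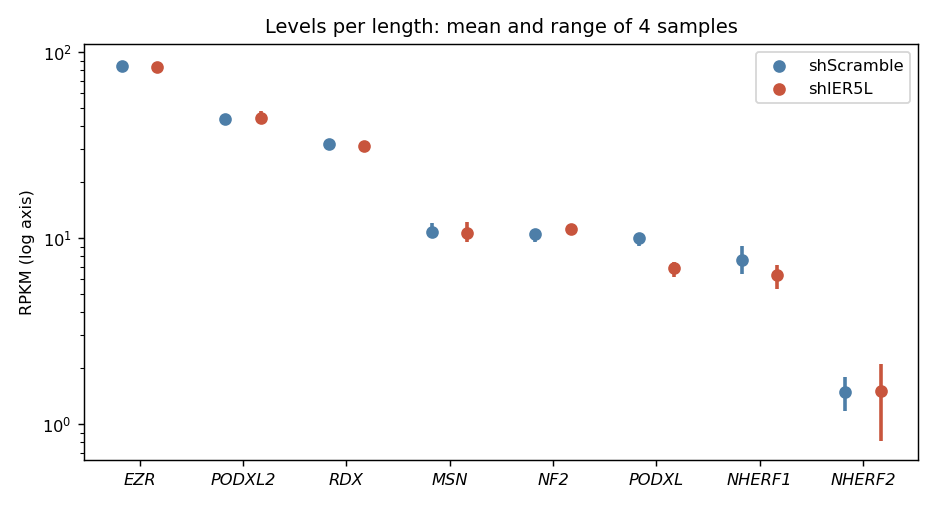
Levels per exon length in RPKM (log axis) of the 8 genes with counts in all samples, ordered by their shScramble mean. Points are means and lines span the lowest to the highest of 4 samples. EZR stands at 84.1 and 83.0 RPKM, and PODXL at 10.1 RPKM in shScramble and 6.92 RPKM in shIER5L.

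The labelled cell line was compared with markers. The epithelial keratins KRT8, KRT18 and KRT19 had 47.6, 399 and 481 CPM in shScramble and 53.5, 406 and 481 CPM in shIER5L, whereas CDH1 was at 1.09 and 1.22 CPM. EPCAM had 29.5 and 26.9 CPM. Of the prostate luminal markers, KLK3 and KLK2 were at 0 in all samples and TMPRSS2 was near 0. The podocyte marker NPHS1 was at 0 in all samples, while CD2AP (58.4 and 63.3 CPM), WT1 and SYNPO were detected.

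The genes that work with these proteins were read from 9 lists, which were chosen with earlier results of these data known. They held 163 genes besides the 9, of which 137 were tested. Of these, 8 were higher and 2 lower in shIER5L at an adjusted p under 0.05, that is 7.30% against 3.93% of all genes tested, of which 2.46% were higher and 1.46% lower. These calls depended on single libraries: 2 higher and 0 lower genes were left without shScramble replicate 2, 4 and 0 without shScramble replicate 3, and 3 and 0 without shIER5L replicate 3. Without shScramble replicate 4 they were 5 and 1. With the GC level as a covariate 17 genes were higher and 4 lower, against 5.71% and 3.55% of all genes tested in that fit, or 9.26% in either direction. The 10 genes called in the first fit were all among these 21.

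Trafficking genes that carry podocalyxin to the apical surface gave the most calls. Of the 21 tested in this list, 4 rose, 0 fell and 17 did not pass, and the median change was 0.12 (log2). SYTL2, which encodes the Rab27 effector synaptotagmin-like 2, had 131.6, 123.9, 125.3 and 123.5 CPM in shScramble and 159.1, 160.8, 166.7 and 165.4 CPM in shIER5L. The conditions were far apart relative to the spread within each, and the log2 fold change was 0.37 (SE 0.0429, edgeR adjusted p = 0.000106). SYTL2 kept an adjusted p under 0.05 when any 1 sample was left out.

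RAB27A, the small GTPase that SYTL2 binds, rose by 0.43 on the log2 scale (SE 0.0914), its means being 13.5 CPM (SD 1.25) and 18.2 CPM (SD 1.21). The edgeR adjusted p of RAB27A was 0.0139, and under 0.05 in 6 of the 8 fits without 1 sample. RAB8B, another Rab of the apical route, rose from 48.9 to 58.6 CPM, a log2 fold change of 0.26 (edgeR adjusted p = 0.0145, under 0.05 in 5 of the 8 fits). OCRL, an inositol phosphatase of endosomes, rose from 89.2 to 101 CPM, a log2 fold change of 0.18 (edgeR adjusted p = 0.0449, under 0.05 in 0 of the 8 fits and 0.0663 with the replicate block). SYTL2 and RAB27A encode partners of 1 complex, and both were higher while the PODXL transcript was lower. RAB27B, the other Rab27 gene of the list, was at a higher level than RAB27A and did not pass. It had 189 CPM in shScramble and 196 CPM in shIER5L (log2 fold change 0.05, edgeR adjusted p = 0.765). The best expressed gene of the list, TUBA1A, an alpha tubulin, had 55.9 and 63.2 RPKM (log2 fold change 0.18, edgeR adjusted p = 0.0761). With the GC level as a covariate 8 of the 21 were higher and 0 lower, the added genes being ACAP2, EXOC5, GIPC1 and TUBA1A.

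**Figure D4:**
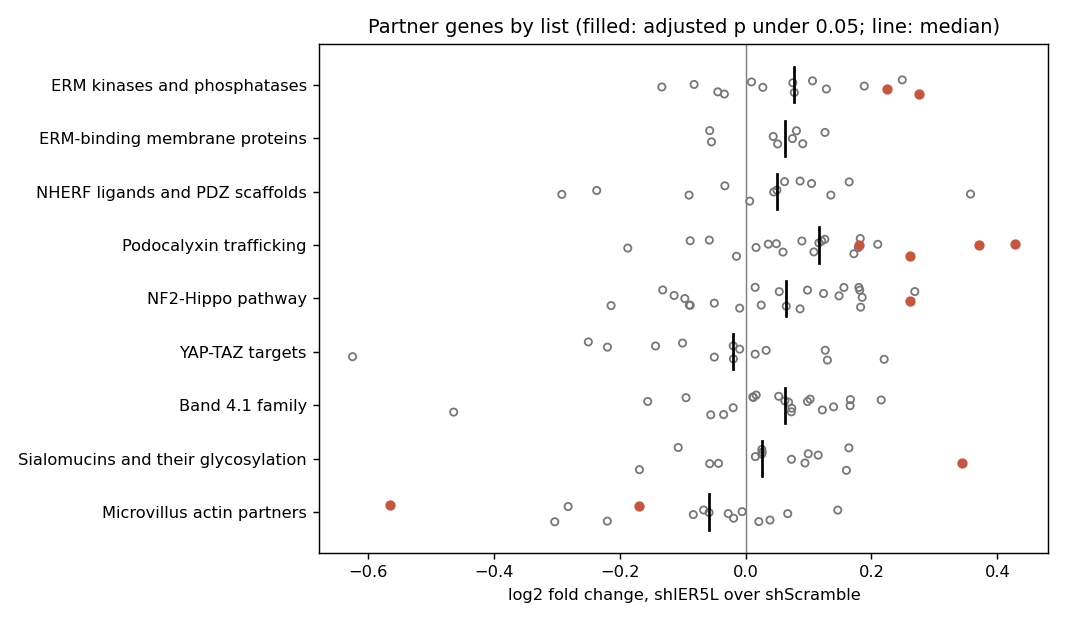
Log2 fold change of shIER5L over shScramble (horizontal axis) for the genes tested in 9 lists of partners, a gene in several lists being drawn in each. Filled points passed an adjusted p of 0.05, open points did not, and black lines are medians. In the trafficking list 4 of 21 genes passed, all on the higher side, and in the microvillus list 2 of 15 passed, both on the lower side.

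Among the kinases and phosphatases that act on ERM proteins, 2 of 14 rose, 0 fell and 12 did not pass, and the median change was 0.08 (log2). PRKCA, protein kinase C alpha, had 51.8, 53.4, 59.5 and 59.9 CPM in shScramble and 67.0, 68.4, 67.4 and 69.1 CPM in shIER5L. All silenced samples were above all controls, and the log2 fold change was 0.28 (SE 0.0588, edgeR adjusted p = 0.0139, under 0.05 in 7 of the 8 fits without 1 sample). PPP1R12A, the targeting subunit of myosin phosphatase, rose from 109 to 127 CPM, a log2 fold change of 0.22 (edgeR adjusted p = 0.0230, under 0.05 in 4 of the 8 fits). The catalytic subunit gene PPP1CB, the best expressed of the list, had 48.8 and 52.5 RPKM (log2 fold change 0.11, edgeR adjusted p = 0.547).

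In the list of microvillus and cortical actin partners, 0 of 15 rose, 2 fell and 13 did not pass, and the median log2 fold change was -0.06. FSCN1 encodes fascin, which bundles actin in filopodia. It had 53.2, 70.1, 74.0 and 51.1 CPM in shScramble and 49.1, 46.0, 36.7 and 36.3 CPM in shIER5L. The silenced samples lay below the controls by a small margin, and the log2 fold change was -0.57 (SE 0.120, edgeR adjusted p = 0.0139, under 0.05 in 5 of the 8 fits). FSCN1 was the 1 DEG among the partners, and the study also picked it from these samples. With the GC level as a covariate its log2 fold change was -0.45 (adjusted p = 9.72e-07), below the DEG limit in size. S100A10, the annexin A2 ligand, fell from 177 to 157 CPM, a log2 fold change of -0.17 (edgeR adjusted p = 0.0426, under 0.05 in 1 of the 8 fits and 0.0582 with the replicate block). ANXA2 itself, the best expressed of the list, had 318 and 303 RPKM (log2 fold change -0.07, edgeR adjusted p = 0.444).

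The NF2 and Hippo list had 1 higher, 0 lower and 22 genes that did not pass of 23, and the median change was 0.06 (log2). The 1 gene was WWTR1, which encodes the Hippo effector TAZ and was also the best expressed of the list. It had 243.1, 213.2, 225.7 and 245.4 CPM in shScramble and 273.3, 276.7, 289.0 and 272.2 CPM in shIER5L. All silenced samples were higher, with a log2 fold change of 0.26 (SE 0.0485, edgeR adjusted p = 0.00577), and WWTR1 kept an adjusted p under 0.05 when any 1 sample was left out. Of the 14 targets of YAP and TAZ tested, 0 rose and 0 fell, 1 had an unadjusted p under 0.05, and the median log2 fold change was -0.02. The best expressed target, AJUBA, had 24.5 and 25.05 RPKM. Under the GC covariate the Hippo list also had 1 lower gene, the kinase gene STK4 (log2 fold change -0.12, edgeR adjusted p = 0.0339), and 1 target was higher, CRIM1 (0.12, adjusted p = 0.0469).

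The remaining lists held 1 call. Among sialomucins and enzymes of their glycosylation, 1 of 15 rose and 14 did not pass, with a median of 0.03. GALNT3, which starts mucin-type O-glycans, rose by 0.34 on the log2 scale, from a mean of 24.3 CPM (SD 3.43) to 30.8 CPM (SD 1.45). The edgeR adjusted p of GALNT3 was 0.0455 and stayed under 0.05 in 2 of the 8 fits. The most abundant sialomucin of that list was CD164 (35.7 and 40.0 RPKM, log2 fold change 0.16, edgeR adjusted p = 0.0836), which was called higher with the GC level as a covariate (0.13, adjusted p = 0.00884). Of the 8 membrane proteins that bind ERM proteins, 0 passed, 0 had an unadjusted p under 0.05, and the median was 0.06. Of the 13 ligands of the NHERF scaffolds, 0 passed and 4 had an unadjusted p under 0.05, with a median of 0.05. Of the 21 other members of the band 4.1 superfamily, 0 passed and 2 had an unadjusted p under 0.05, with a median of 0.06. The best expressed genes of these 3 lists, BSG (70.6 and 68.0 RPKM), CTNNB1 (110 and 118 RPKM) and FERMT2 (24.6 and 27.1 RPKM), did not pass. In the fit with the GC level, 2 NHERF ligands were higher, CTNNB1 (log2 fold change 0.09, edgeR adjusted p = 0.0399) and PDGFRA (0.32, adjusted p = 0.0451). In the band 4.1 list that fit called FERMT2 higher (0.11, adjusted p = 0.0391) and EPB41L2 lower (-0.17, adjusted p = 0.00729).

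The genes whose pattern over the 8 samples was most like that of PODXL were sought among 9098 genes with a mean of at least 10 CPM, as the smallest root mean square difference of centred log2 CPM. They were UBE2QL1 (0.0735), PCOLCE2 (0.0737) and GLB1L2 (0.0738), beside a median of 0.306 over all genes compared. Their levels were 19.2 and 13.7, 39.9 and 26.0, and 40.6 and 28.1 CPM in shScramble and shIER5L. For EZR they were MYO10 (0.0228), CEP250 (0.0250) and UBAC1 (0.0251), beside a median of 0.112. These likenesses are descriptions over 8 samples that share the 2 conditions.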

How the data were processed

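RNA-seq of 8 PC3 samples was used, grouped by the treatment given in the labels. The authors deposited raw counts, whole numbers of reads per Ensembl gene, without normalization. Their notes, methods and file header name STAR 2.7.5c for alignment to hg38, SAMtools 1.15 for removing duplicates, and featureCounts 2.0.3 for counting primary alignments on exons. No strand option was set, so antisense overlaps cannot be told apart. Reads in more than 1 gene were left out, and mates were counted singly, so that 65.6% of small counts (1 to 20) were even. The 37 mitochondrial genes summed to 0. The labels name a stranded mRNA kit and the methods a ribosomal depletion kit.

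From these counts, genes were selected by filterByExpr, TMM factors were applied, and the quasi-likelihood test (glmQLFit, glmQLFTest) was run on condition alone in edgeR 4.0.16 under R 4.3.3. CPM are counts over TMM-scaled library sizes and RPKM divide them by the counted exon length. The script was tested on simulated data, where 158 of 200 genes changed by 1 (log2) were recovered, with 13 false calls. The median standard error was 0.109 (log2). Symbols were found for 56948 of 58051 identifiers (GENCODE v44). Shares were compared with exact permutation tests.

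The members and lists were chosen with earlier results of these data known. Named are the 9 genes, IER5L, up to 4 called genes and the best expressed gene per list, overlapping genes, pseudogene copies, and the 3 genes most like PODXL and EZR. Further genes named for a call under the GC covariate were chosen after their values were seen. RAB27B was also named after its values were seen. Alternatives were other scalings (RLE, upper quartile, total counts), filters, DESeq2 1.42.0, limma 3.58.1 (voom), a likelihood ratio test, a replicate block, leaving out each sample and, after the data were examined, halved counts and the GC covariate. GC levels used genes with a mean of at least 1 CPM, a pseudocount of 0.5 CPM and the outer 10%. Protein sequences were not used here, and some marker genes are not reported here.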

Additional observations from a re-analysis of the deposited data

Results flagged for a closer look

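CD34 in shIER5L replicate 3 had 0.0832 CPM (2 counts) while the other 3 samples of that condition had 0, which put it apart from its group by Dixon's criterion. With the other 3 samples at 0, any count above 0 meets this criterion. The value is also below what a count of 0 allows in that sample (0.125 CPM).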

How the results depend on the processing

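PODXL kept its direction and an adjusted p under 0.05 in all 19 alternative fits. Leaving out 1 sample gave log2 fold changes of -0.59 to -0.49, and the number of DEGs among the 9 genes was 0 to 1, with 0 without shIER5L replicate 2. With a replicate block PODXL was at -0.54 (edgeR adjusted p = 0.000141). Little sign of pairing by replicate number was seen: deviations of same-numbered samples correlated by -0.05 to 0.14, with 1 of 4 over 0.1. Pairing is not excluded, since 0.14, for the samples numbered 4, was the highest correlation between the conditions. The block also lowered the SE of IER5L from 0.248 to 0.178. The block left 7 higher partner genes in place of 8 (OCRL lost its call) and 1 lower in place of 2 (S100A10 lost its call), and changed no call of the 9 genes. Partner genes ranged over 2 to 8 higher and 0 to 2 lower when 1 sample was left out, and were 17 and 4 with the GC covariate. NHERF2, never past the threshold, turned to -0.0057 under upper quartile scaling, -0.0040 with total counts, -0.00096 without a filter, -0.0722 with voom and -0.0384 with the replicate block, and ran from -0.20 to 0.21 without 1 sample. The same ranges were -0.351 to -0.177 for NHERF1, -0.0451 to 0.0153 for EZR, -0.0875 to 0.0390 for MSN and -0.0181 to 0.0514 for PODXL2. The differences in the ezrin, radixin and moesin shares ran from -0.292 to 1.20, -0.748 to 0.266 and -0.450 to 0.399 percentage points. The cause of these shifts was not tested. Without 1 sample the exact permutation tests of shares cannot go below p = 0.0571, nor paired exact sign flips below 0.125. At 2.88 to 7.50 CPM, NHERF2 had the widest interval.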
